A study of Mus musculus with 12 samples.

Results

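The genes described here are 9 members of the leukaemia inhibitory factor (LIF) to Stat3 pathway and the Pim kinase family, picked by symbol: Lifr, Il6st, Jak1, Stat3, Socs3, Pim1, Pim2, Pim3 and Junb. All 9 were found among the 53819 symbols of the count table, and all 9 passed the filter on low counts that left 13852 genes for testing. The series holds 12 libraries of E14 cells, a mouse embryonic stem cell line, grown in 2 dimensions, with 3 libraries in each of 4 groups. These were untreated control cells, cells kept in proline for 72 h, in budesonide for 72 h, or in the pair of compounds for 72 h. Budesonide is a synthetic glucocorticoid, and proline is an amino acid known to move stem cells away from the naive state. All 4 groups are the same line, and the labels give no doses and no culture medium, so whether LIF was in the medium is not given in the sources used here. The labels do not state whether replicates came from separate cultures, so a p-value here reflects only library-to-library spread, which may be technical.

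LIF binds a receptor made of Lifr and the shared chain gp130, which is encoded by Il6st. The receptor activates Jak kinases, chiefly Jak1, which phosphorylate the transcription factor Stat3, and Stat3 then enters the nucleus and switches on its targets. In mouse embryonic stem cells this pathway is known for holding the naive, self-renewing state. Socs3 is a target that shuts the receptor off, and Junb is a fast-responding target. Pim1, Pim2 and Pim3 encode serine/threonine kinases that are active once made, so their amount is set largely by how much is expressed, and Pim1 and Pim3 are known Stat3 targets in these cells.

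Library totals ran from 5.30 to 15.9 M counts, with the deepest library in the proline group. All 8 embryonic stem cell markers had counts in every group, and their summed level was 2343 to 3485 CPM (counts scaled to library size by TMM) over the 12 libraries. The sum hides changes of single markers. By the test described below, 3 of the 8 were lower with proline (Nanog, Zfp42 and Esrrb), against 4.71% of all tested genes. With budesonide 2 were lower (Tdgf1 and Utf1), against 4.0% of all tested genes. In both against proline 3 were higher and 2 lower, against 5.83% and 4.27% of all tested genes. In both against control 2 were lower, against 3.83% of all tested genes. Feeder fibroblast markers summed to at most 11.7 CPM in any library, with Lum and Postn at 0 in all 4 groups. Endoderm markers summed to 9.69 to 14.9 CPM in control, 25.1 to 27.5 under proline, 5.39 to 15 under budesonide and 15.4 to 25.5 under both. Dab2 made up the largest part under proline, at a mean of 13.0 CPM against 3.58 in control. The list did not move as a whole, since 4 of the 6 tested had positive log2 changes with proline. By the same test Sox17 was higher (2.30 against 0.0513 CPM, edgeR adjusted p = 0.0442), against 3.17% of all tested genes. DESeq2 called 1 of the list there and limma-voom none. With budesonide 1 of the 6 was higher, against 2.51% of all tested genes. Foxa2 (0.816 against 1.69) and Sox7 (0.500 against 1.47) had lower means under proline that did not pass the test. Sox17, Foxa2 and Sox7 all had few counts. Trophoblast markers summed to 18.4 to 26.0 CPM in control, 15.5 to 25.4 under proline, 29.6 to 36.3 under budesonide and 24.6 to 28.6 under both. The largest gains in mean with budesonide were in Ascl2 (18.4 against 10.3 in control) and Krt7 (7.37 against 1.29). Eomes (1.21 against 3.35), Cdx2 and Gata3 had lower means. Of the 7 tested, 4 had positive log2 changes with budesonide, and none passed the test in any comparison. The part of these cells in the results below was not tested. Control 3 and budesonide 3 had the highest shares of tested genes without a count, at 6.57% and 8.43%. The others ran from 1.39% to 5.77%, so control 3 lay close to the next library, proline 2. Mitochondrial genes took 5.51% to 5.79% of counts in the proline libraries and 7.31% to 8.03% in the other 9. In bulk RNA, fewer cells of a type and less RNA per cell cannot be told apart.

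Pim2 changed in every comparison, Lifr and Pim3 changed in some, and Stat3 and Jak1 passed the test in none of the 6. Genes count as called where edgeR's quasi-likelihood test gave an adjusted p below 0.05, and "rose" or "fell" is used for called genes. With proline, 1 member rose (Pim2) and 1 fell (Lifr), while 7.88% of all tested genes were called, 3.17% higher and 4.71% lower. With budesonide, 1 rose (Pim3) and 1 fell (Pim2), against 6.51% of all tested genes, 2.51% higher and 4.0% lower. In cells given both compounds against proline alone, 2 rose (Lifr and Pim3) and 1 fell (Pim2), against 10.1% of all tested genes, 5.83% higher and 4.27% lower. Against control, cells given both had 2 members higher (Pim2 and Pim3), with 7.17% of all genes called, 3.34% higher and 3.83% lower. Against budesonide alone they had 1 member higher (Pim2), with 1.47% of all genes called, 0.874% higher and 0.592% lower. The interaction, which is the proline effect with budesonide minus the proline effect without it, was called for 1 member (Pim2), lower, with 0.469% of all genes called, 0.411% higher and 0.0578% lower. These counts are of 9 genes that were chosen with earlier results of these data known, and the comparisons share libraries with each other.

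**Figure D1:**
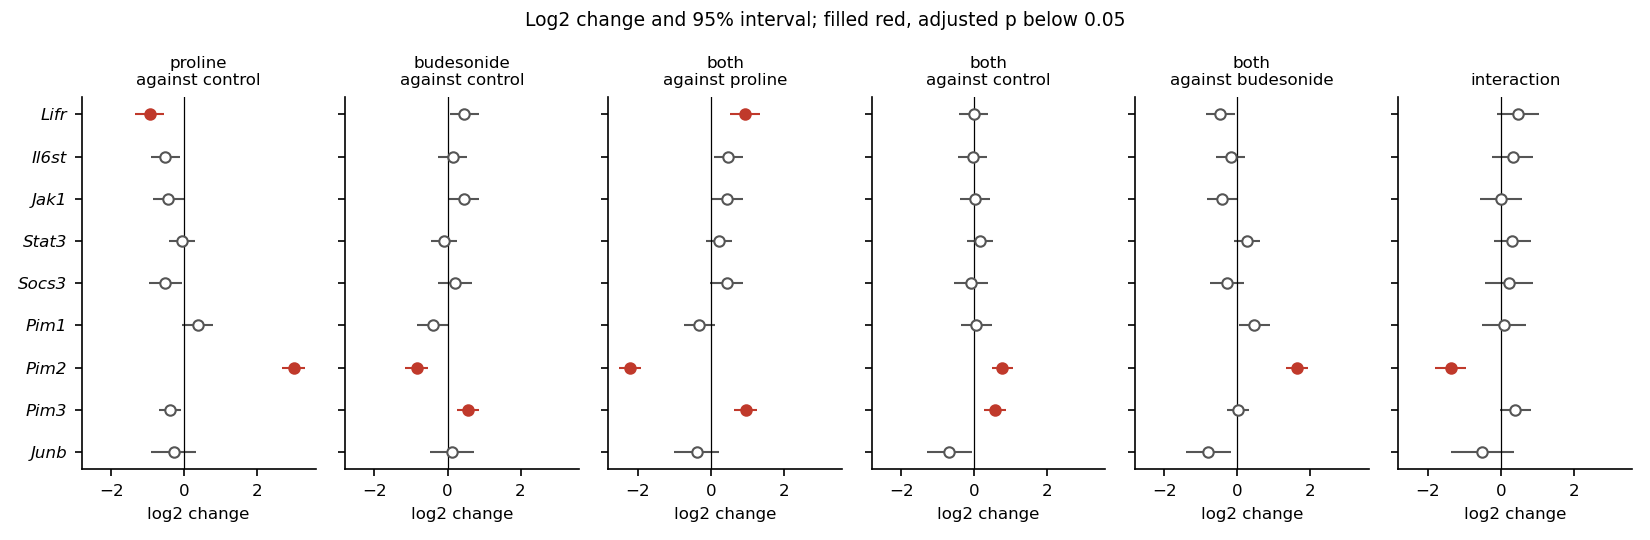
Log2 change of each of the 9 genes (x axis) in the 5 comparisons of 2 groups and the interaction, with 95% intervals from edgeR's quasi-likelihood fit. Filled red points passed an adjusted p of 0.05. Pim2 is red in all 6 panels, at 3.00 with proline and −2.22 in both compounds against proline.

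Without control 3 and budesonide 3, the members called numbered 4 for proline, 1 for budesonide, 3 for both against proline, and 1 in each of the remaining 3 comparisons. The libraries of the groups compared did not overlap for 5 of the 9 members with proline (26.7% of all tested genes), 4 with budesonide (23.7%) and 4 in both against proline (31.9%). They did not overlap for 3 members in both against control (28.4%) and 3 in both against budesonide (19.4%). The median log2 change over the 9 members was −0.38 with proline, where it was −0.01 over all tested genes. It was 0.15 with budesonide (all genes 0.01) and 0.43 in both against proline (all genes 0.02). In both against control it was 0.02 (all genes 0.01), and in both against budesonide −0.18 (all genes 0.01).

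The receptor gene Lifr was lower with proline and stood near the control level when budesonide was added. Lifr was at 69.7, 51.3 and 51.5 CPM in control, 25.9, 27.8 and 36.2 with proline, 81.7, 67.6 and 88.0 with budesonide, and 51.1, 66.5 and 53.8 with both. Every proline library lay below every library of the other 3 groups, as did its mitochondrial share, whose part was not tested, and control overlapped both other groups. The log2 change with proline was −0.95 ± 0.20 (SE, n = 3 libraries a group), a 1.93-fold lower level (edgeR adjusted p = 0.00288). In both against proline Lifr rose by 0.94 ± 0.20, or 1.91-fold (adjusted p = 0.00263). Budesonide alone gave 0.46 ± 0.19 (adjusted p = 0.174), with an interval of 0.06 to 0.86, and cells given both differed from control by −0.01, with an interval of −0.41 to 0.39. From low to high, the mean levels were proline, both, control and budesonide, and the neighbours both and control did not differ beyond their spread. The proline effects without and with budesonide, −0.95 and −0.47, had an interaction of 0.48 ± 0.27 (adjusted p = 0.667), so the change in the proline effect did not pass the test.

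Il6st, which encodes gp130, had no call. It was at 50.5, 42.7 and 53.7 CPM in control, 31.9, 30.7 and 40.5 with proline, 55.5, 61.1 and 46.1 with budesonide, and 49.6, 49.3 and 44.9 with both. The proline libraries lay below all others here as well. The log2 change was −0.51 ± 0.19 with proline (adjusted p = 0.117) and 0.48 ± 0.19 in both against proline (adjusted p = 0.122).

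Lifr and Il6st have the longest transcripts of the 9, at 9655 and 8678 bases in GENCODE M21, and the budesonide effect moved with length over all genes. The median log2 change of transcripts over 8 kb was 0.21 for budesonide against control and 0.30 for both against proline, and −0.19 for proline against control. Offsets for transcript length and GC brought Lifr to 0.68 in both against proline (adjusted p = 0.0221) and to −0.72 with proline (adjusted p = 0.0182), and both calls held. The ribosomal RNA Rn18s took 2.21% to 3.39% of counts in the libraries without budesonide and 2.28% to 6.70% in those with it. Its part in the result was not tested.

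Jak1, the kinase bound to gp130, and Stat3 had no call in any comparison. Jak1 was at 51.6, 56.2 and 59.5 CPM in control, 33, 40.2 and 51.4 with proline, 67.4, 96.8 and 63.6 with budesonide, and 50.9, 54.1 and 65.1 with both. Its proline libraries lay just under control and its budesonide libraries just above, with log2 changes of −0.43 ± 0.20 (adjusted p = 0.236) and 0.44 ± 0.20 (adjusted p = 0.210). Stat3 was at 199, 246 and 184 CPM in control, 207, 160 and 234 with proline, 251, 195 and 145 with budesonide, and 261, 224 and 220 with both. Each group of Stat3 libraries overlapped each other group. Its 95% interval was −0.42 to 0.29 on the log2 scale with proline and −0.44 to 0.26 with budesonide. RNA counts carry no measure of Stat3 phosphorylation.

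**Figure D2:**
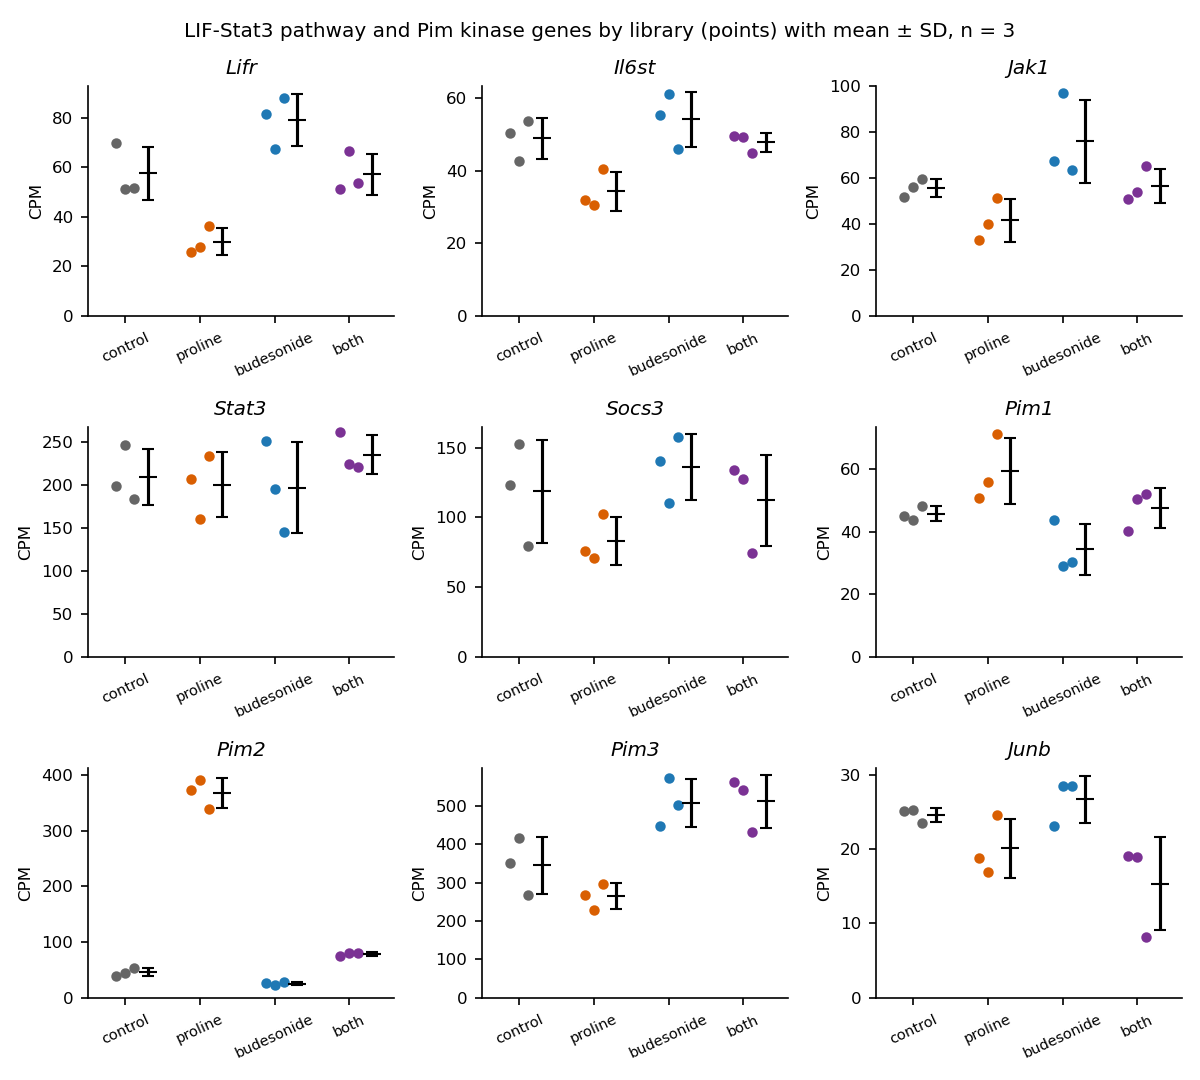
Level of each gene in CPM (y axis, starting at 0) in the 12 libraries, by group; black bars are the mean ± SD of 3 libraries. Pim2 stands at 339 to 390 CPM in the proline libraries and below 82 CPM elsewhere, and the proline libraries of Lifr lie under all others.

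The feedback inhibitor Socs3 and the AP-1 gene Junb, both fast-responding Stat3 targets, had no call. Socs3 was at 123, 153 and 79.9 CPM in control, 76.0, 70.6 and 103 with proline, 140, 110 and 158 with budesonide, and 134, 128 and 74.7 with both. Control 3 and both 3 lay at the level of the proline libraries, so the groups overlapped. The log2 change with proline was −0.51 ± 0.22 (adjusted p = 0.193). It was called without control 3 (−0.73, adjusted p = 0.0338), without control 3 and budesonide 3 (−0.74, adjusted p = 0.0201) and with no low-count filter (−0.51, adjusted p = 0.0335), over a range of 0.0201 to 0.633. Junb was at 25.1, 25.2 and 23.5 CPM in control, 18.8, 17.0 and 24.5 with proline, 23.1, 28.5 and 28.5 with budesonide, and 19.0, 19.0 and 8.12 with both. The 3 libraries given both lay below control and below budesonide, with log2 changes of −0.68 ± 0.30 (adjusted p = 0.190) and −0.80 ± 0.30 (adjusted p = 0.211). Without both 3, the change against control was −0.37 (adjusted p = 0.562).

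Of the 9 genes, Socs3 is the one whose promoter holds the Stat motif TTCNNNGAA in the 250 bases before the start, and it is shown for that reason with the motif in capitals. All 9 genes had a promoter in the RefSeq table (GRCm38.p6), 11 in all. The motif, which reads the same on both strands, is in 7.02% of the 32851 promoter windows of that length. The Socs3 match is TTCTTAGAA, and it begins 154 bases before the start, in chr11:117969367-117969616, minus strand.
Socs3: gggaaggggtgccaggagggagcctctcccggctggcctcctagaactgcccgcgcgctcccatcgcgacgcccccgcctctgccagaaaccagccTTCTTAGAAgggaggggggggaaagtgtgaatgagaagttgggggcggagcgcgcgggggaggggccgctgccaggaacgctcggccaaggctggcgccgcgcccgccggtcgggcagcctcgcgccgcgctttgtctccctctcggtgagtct
The stricter form TTCCNGGAA was in none of the 9 genes' windows and in 0.913% of all windows, and every match to it is also a match to the looser form. The full palindromic consensus of the glucocorticoid response element, searched on both strands, was in none of them and in 0.00913% of all windows. A match is a description of letters, not a binding site.

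Among the Pim kinases, Pim2 rose with proline and fell with budesonide, while Pim3 moved the other way with budesonide and Pim1 had no call. Pim2 was at 39.7, 44.4 and 53.9 CPM in control, 373, 390 and 339 with proline, 25.9, 22.7 and 28.0 with budesonide, and 74.4, 80.7 and 81.3 with both. No library of any group overlapped another group, and the order was budesonide, control, both, proline, with each neighbouring pair apart. The change with proline was 3.00 ± 0.15 on the log2 scale, or 7.98-fold higher (edgeR adjusted p = 3.89e-12), and its p-value ranked 2 among the 13852 tested genes. In the proline libraries the mitochondrial share was lowest (5.51% to 5.79%). The summed endoderm markers reached 25.1 to 27.5 CPM there, with Dab2 alone at a mean of 13.0. Sox17 was called higher there, while Foxa2 and Sox7 lay below their control means without a call. The part of the mitochondrial share or of these markers in the change was not tested. With budesonide alone Pim2 fell by 0.85 ± 0.15, a 1.80-fold lower level (adjusted p = 0.000956). The call ended when the fit used the 6 libraries of those groups alone (−0.85, adjusted p = 0.0561), over a range of 6.42e-06 to 0.0561.

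Budesonide in proline-treated cells brought Pim2 down by −2.22 ± 0.14, or 4.66-fold (adjusted p = 3.18e-10). Cells given both still held 1.71-fold more Pim2 than control, a log2 change of 0.78 ± 0.14 (adjusted p = 0.00133). They held 3.08-fold more than cells given budesonide alone, 1.62 ± 0.15 (adjusted p = 1.83e-06), which ranked 1 by p-value among all tested genes. The proline effect on Pim2 was 54.2% as large with budesonide as without it on the log2 scale, and these effects share no library. The interaction was −1.37 ± 0.20 with a 95% interval of −1.79 to −0.95 (adjusted p = 0.000967), and it was called under all 20 alternatives run, at −1.50 to −1.28.

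Pim3 was at 351, 417 and 267 CPM in control, 268, 230 and 296 with proline, 447, 572 and 501 with budesonide, and 562, 540 and 433 with both. All 6 libraries with budesonide lay above all 6 without it, whether or not proline was present. The summed trophoblast markers were at 18.4 to 26.0 CPM in control and 15.5 to 25.4 with proline. They were at 29.6 to 36.3 CPM with budesonide alone and 24.6 to 28.6 with both. With budesonide alone, the largest gains in mean over control were in Ascl2 and Krt7, while Eomes, Cdx2 and Gata3 had lower means. None of the 7 tested trophoblast markers was called in any comparison. The part of these markers was not tested. Against proline alone, cells given both rose by 0.95 ± 0.15, or 1.93-fold (adjusted p = 0.000134). Against control, Pim3 rose by 0.56 ± 0.15 with budesonide (adjusted p = 0.0223) and by 0.57 ± 0.15 with both (adjusted p = 0.0179). The proline change was −0.38 ± 0.15 (adjusted p = 0.128), called without control 3 (−0.54, adjusted p = 0.0165). Both against budesonide gave a log2 change of 0.01, with an interval of −0.29 to 0.31.

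The Pim3 calls against control did not hold under every alternative, although the change kept its direction. For budesonide the call was lost on leaving out control 1 (0.57, adjusted p = 0.0511), control 3 (0.40, 0.119) or budesonide 2 (0.45, 0.105), without control 3 and budesonide 3 together (0.42, 0.140), in the fit of the 6 libraries (0.0656) and under the offsets for length and GC (0.46, 0.0807), across a range of 0.000691 to 0.140. For both against control it ended without control 3 (0.41, adjusted p = 0.101), both 1 (0.50, 0.102) or both 2 (0.53, 0.0889), without control 3 and budesonide 3 (0.41, 0.0842) and with the offsets (0.41, 0.106), over a range of 0.000431 to 0.106. The call of both against proline was kept under all 21 alternatives.

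Pim1, the founding member of the family, was at 44.9, 43.8 and 48.3 CPM in control, 50.8, 56.0 and 71.1 with proline, 43.8, 29.1 and 30.2 with budesonide, and 40.2, 50.5 and 52.0 with both. The proline libraries lay above control and the budesonide libraries lay below it, budesonide 1 only just (43.77 against 43.85 CPM in control 2). The log2 changes were 0.37 ± 0.20 with proline (adjusted p = 0.340) and −0.41 ± 0.21 with budesonide (adjusted p = 0.278). The same measured directions as Pim2 thus did not pass the test for Pim1.

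**Figure D3:**
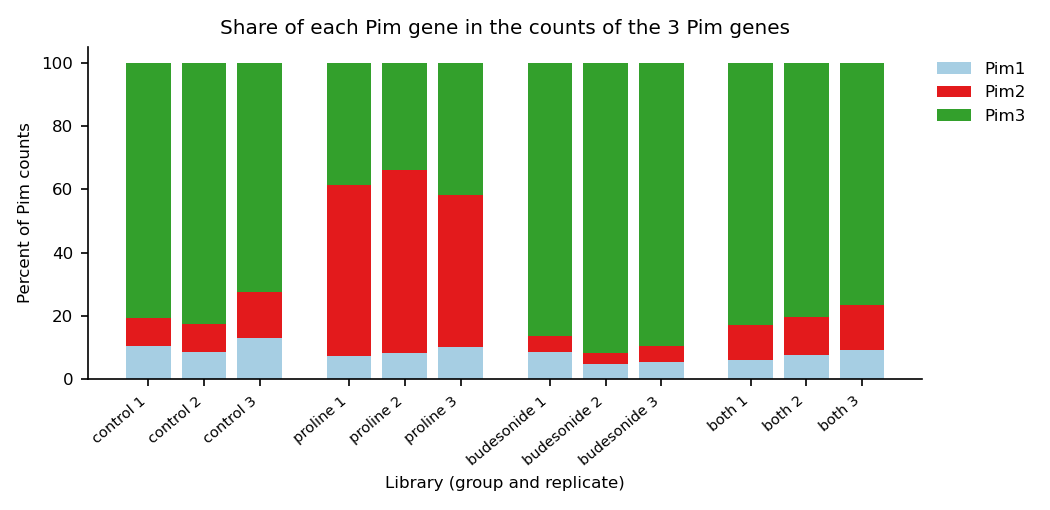
Share of Pim1, Pim2 and Pim3 in the counts of the 3 genes (y axis, percent) in each of the 12 libraries. Pim2 takes 48.0% to 57.8% in the proline libraries and at most 14.6% in any other.

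The make-up of the Pim counts within each library does not depend on library scaling. Pim2 took 9.11%, 8.79% and 14.6% of the 3 genes' counts in control, 53.9%, 57.8% and 48.0% with proline, 5.01%, 3.64% and 5.01% with budesonide, and 11%, 12% and 14.4% with both. It was the main Pim transcript by count in the proline libraries and Pim3 was in all others. Group means were 10.8% ± 3.25 (SD, n = 3), 53.2% ± 4.91, 4.55% ± 0.786 and 12.5% ± 1.72. Per kilobase of the longest transcript the Pim2 means were 12.7%, 57.9%, 5.39% and 14.6%. The libraries were sequenced near the 3′ end of transcripts, where counts need not grow with length. The values per kilobase are therefore not a length-corrected make-up. Proline and control did not overlap, with an exact two-sided permutation p = 0.1, which is the lowest value 3 against 3 libraries can reach (0.125 adjusted over 5 comparisons). Both and control overlapped (exact permutation p = 0.6), while the levels of Pim2 and Pim3 were each called higher with both.

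The promoters of Pim2 and Pim3 are shown because budesonide alone moved these genes in opposite directions against control, Pim2 lower and Pim3 higher. They come from the RefSeq table (GRCm38.p6) and are the 250 bases before the start, on the plus strand, at chrX:7878056-7878305 for Pim2 and chr15:88861944-88862193 for Pim3.
Pim2: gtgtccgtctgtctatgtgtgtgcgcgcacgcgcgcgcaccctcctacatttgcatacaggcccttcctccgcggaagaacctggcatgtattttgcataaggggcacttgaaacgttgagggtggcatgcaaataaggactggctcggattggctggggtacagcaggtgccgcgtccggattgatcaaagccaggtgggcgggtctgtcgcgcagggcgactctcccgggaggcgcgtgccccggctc
Pim3: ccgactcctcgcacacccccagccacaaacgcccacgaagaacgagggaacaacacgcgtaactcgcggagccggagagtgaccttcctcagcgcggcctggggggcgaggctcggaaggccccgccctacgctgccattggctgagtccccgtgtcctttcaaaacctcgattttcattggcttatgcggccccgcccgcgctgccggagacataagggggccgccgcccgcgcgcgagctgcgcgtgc
Neither holds TTCNNNGAA, the response element above or the E-box CACGTG, which reads the same on both strands and is in 6.02% of all windows. The GC content was 62.0% for Pim2 and 68.0% for Pim3. A lack of a match says only that these letters are not in this window.

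The genes most like Pim2 over the 12 libraries, by Pearson correlation of log2 CPM, were Dnmt3b (0.977), Srm (0.974), Enpp2 (0.973), Zfp608 (0.972) and Mycn (0.970). Dnmt3b encodes a de novo DNA methyltransferase, Srm makes spermidine, Enpp2 makes lysophosphatidic acid and Mycn is a Myc family transcription factor. Mycn had a mean level of 168 ± 5.46 CPM (SD, n = 3) in control, 325 ± 13.4 in proline libraries, 123 ± 14.9 under budesonide, and 170 ± 14.1 where both were given. Unlike Pim2, its mean with both lay within an SD of control. Within the 9 members, Lifr ran most opposite to Pim2 (−0.925) and Il6st and Jak1 followed each other most closely (0.842). The genes most like Socs3 were Cdc73 (0.921), Fzd5 (0.920), Cmtm6 (0.898), Smarcad1 (0.894) and Gm43237 (0.883). These correlations are descriptions over 12 libraries in 4 groups, and every pair of genes shares the libraries and their depth.

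Other genes of the pathway were counted from 5 lists. Of 11 other ligands and receptors of the family, 4 passed the low-count filter (Lif, Cntfr, Il6ra and Il11ra1, named because they were so few). None was called in any comparison by edgeR, DESeq2 or limma-voom, and at an unadjusted p below 0.05 there was 1, in budesonide against control. Lif itself stood at 2.35 ± 1.44 CPM in control and 1.30 ± 1.18 with proline (SD, n = 3), close to the detection limit. Of 9 other Jak and Stat genes, edgeR called none in any comparison. At an unadjusted p below 0.05 there was 1 with proline and 1 in both against control, and the other comparisons had none. DESeq2 called 1 in both against control, and limma-voom called none.

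Of 19 inhibitors and adaptors, 1 rose and 1 fell with budesonide, 2 rose in both against proline and 1 was higher in both against control. Over all tested genes, 2.51% rose and 4.0% fell with budesonide, 5.83% rose in both against proline and 3.34% in both against control, so counts this small on a list of 19 are near the background. With proline none was called by edgeR, DESeq2 or limma-voom, and 1 had an unadjusted p below 0.05. The list's median log2 change was 0.05 with proline (all genes −0.01), −0.01 with budesonide (all genes 0.01) and 0.12 in both against proline (all genes 0.02). Socs2, an inhibitor of cytokine receptors best known for growth hormone, led them. It was at 130, 154 and 140 CPM in control, 155, 163 and 175 with proline, 243, 280 and 312 with budesonide, and 332, 323 and 287 with both. Each library with budesonide lay above each without it. Socs2 rose by 0.97 ± 0.12 with budesonide (adjusted p = 4.46e-05), by 0.94 ± 0.12 in both against proline (adjusted p = 2.22e-05) and by 1.15 ± 0.12 in both against control (adjusted p = 4.12e-06). Those calls held under all 21 alternatives.

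Ptpn11, which encodes the phosphatase Shp2, was at 40.3, 39.4 and 38.3 CPM in control and 23.3, 22.3 and 20.6 with budesonide. It fell by 0.83 ± 0.20 on the log2 scale (adjusted p = 0.0129), and the call ended in the fit of the 6 libraries (0.0580) and without control 3 and budesonide 3 (0.0528), over a range of 0.000886 to 0.0580. Pias3, an inhibitor of Stat3 binding to DNA, was at 13.6, 9.01 and 19.3 CPM with proline and 29.3, 25.1 and 24.2 with both. It rose by 0.91 ± 0.29 (adjusted p = 0.0480). This call ended with the replicate block (0.0679) and without any 1 of control 2 (0.0593), proline 1 (0.138), proline 2 (0.210), budesonide 1 (0.0548), budesonide 2 (0.0582), both 1 (0.170), both 2 (0.103) or both 3 (0.0769), over a range of 0.0229 to 0.210.

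Of 13 other LIF and Stat3 targets of stem cells, 3 fell and 1 rose with proline, 1 rose with budesonide, and 3 rose in both against proline. Over all tested genes, 4.71% fell and 3.17% rose with proline, 2.51% rose with budesonide and 5.83% rose in both against proline, and 1 gene of 13 is near the background. Against control, cells given both had none called by edgeR or limma-voom and 2 by DESeq2, with 3 at an unadjusted p below 0.05. The list's median log2 change was −0.04 with proline, 0.10 with budesonide and −0.06 in both against proline, so its called genes were a minority. The naive factor Tfcp2l1 was at 233, 231 and 250 CPM in control, 48.4, 55.5 and 50.05 with proline, 266, 273 and 272 with budesonide, and 184, 178 and 207 with both. Its groups did not overlap, and its order was the reverse of that of Pim2. Klf4, a further direct target, was at 136 to 193 CPM in control, 57.3 to 65.7 under proline, 135 to 177 under budesonide and 129 to 150 under both. Klf5 went from 1061 ± 76.0 CPM in control to 620 ± 27.2 with proline (SD, n = 3), a log2 change of −0.78 ± 0.10 (adjusted p = 8.55e-06), and stood at 1147 ± 62.3 with both, 0.89 ± 0.10 above proline (adjusted p = 1.61e-06).

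With budesonide alone Klf5 rose by 0.33 ± 0.10 (adjusted p = 0.0373). That call ended with no low-count filter (0.0631), in the fit of the 6 libraries (0.0936), with the replicate block (0.0696) and without control 1 (0.145), control 2 (0.111), budesonide 1 (0.163), budesonide 2 (0.0501) or both 1 (0.0531), over a range of 0.00451 to 0.163. Mcl1, which encodes a survival protein of the Bcl2 family, rose with proline by 0.44 ± 0.10 (adjusted p = 0.00545), from 501, 503 and 431 CPM to 637, 642 and 672. In both against budesonide 1 target was lower, Tfcp2l1 by −0.51 ± 0.12 (adjusted p = 0.0269). It was lost with the replicate block (0.0508), with the offsets (0.140) and without budesonide 1 (0.0614), budesonide 2 (0.0765), budesonide 3 (0.0824), both 1 (0.137) or both 2 (0.133), over a range of 0.000494 to 0.140. Of 7 AP-1 partners of Junb, 5 were tested and edgeR, DESeq2 and limma-voom called none in any comparison, with 1 at an unadjusted p below 0.05, in both against budesonide.

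**Figure D4:**
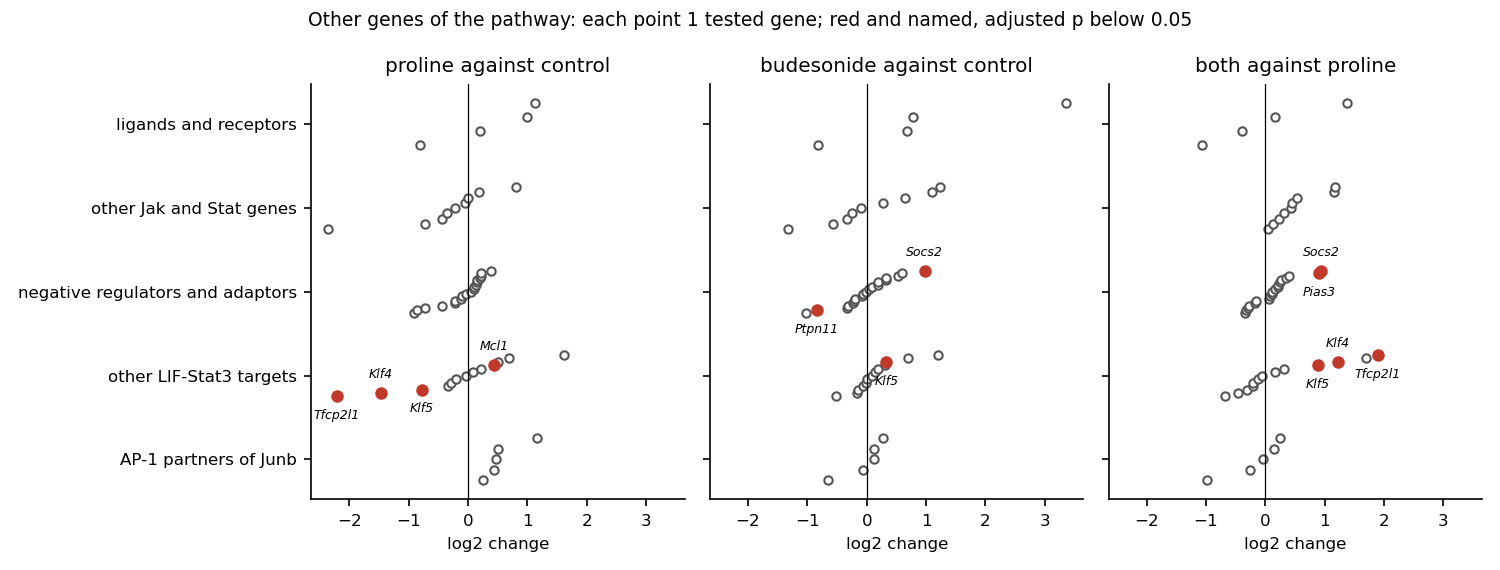
Log2 change (x axis) of each tested gene of 5 pathway lists (rows) with proline, with budesonide, and with both against proline; red named points passed an adjusted p of 0.05. Tfcp2l1, Klf4 and Klf5 lie left of 0 with proline and right of 0 in both against proline, and Socs2 lies near 1 in both budesonide panels.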

How the data were processed

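Polyadenylated RNA of 12 libraries was sequenced near the 3′ end of transcripts (QuantSeq), per the labels' protocols. The submitters' processing notes list the build GRCm39 and the tools STAR 2.7.5c, featureCounts 2.0, cutadapt 2.5, bcl2fastq and DESeq2, without saying what each did. The authors deposited whole-number counts per gene symbol, and these were used. The annotation, the strand setting and how multi-mapping reads were handled: not given in the sources used here. In GENCODE M21, exons of Jak1, Stat3, Pim1 and Junb overlap genes on the opposite strand (Raver2, Stat5a, Gm26885 and Prdx2). The counts of these members are thus uncertain. Over the 12 libraries Prdx2 had 21463 counts and Junb 1939. The other partners had fewer counts than the member, with Raver2 at 1045 (Jak1 5044), Stat5a at 142 (Stat3 19122) and Gm26885 at 612 (Pim1 4294).

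Genes were filtered with filterByExpr (minimum count 10, minimum total 15), scaled by TMM and tested in R 4.3.3 with edgeR 4.0.16 (legacy quasi-likelihood F test, two-sided, 1 coefficient per group, 8 residual degrees of freedom, Benjamini-Hochberg over all 13852 genes). Fold changes used a prior count of 0.125, and correlations used log2 CPM with a prior count of 2. Each standard error (SE) was obtained by dividing the size of the log2 change by the root of F. The median biological coefficient of variation was 0.293. The scripts were tested on simulated data. Recovery of changed genes over all genes missed the level first asked for, with the shortfall among genes of low counts, and the pass rule was then limited to genes with higher counts, so a low gene without a call may still have changed.

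The genes and lists were chosen with earlier results of these data known. All 9 members are named; of the pathway lists, called genes are named, at most 4 per list and comparison, and the 5 genes most like Pim2 and Socs3. Alternatives were DESeq2 size factors, no low-count filter, DESeq2 1.42.0, limma-voom (limma 3.58.1), a fit of the groups compared, a replicate block, leaving out each library, leaving out control 3 and budesonide 3, length and GC offsets (longest GENCODE M21 transcript, found for 97.7% of tested genes) and, chosen after seeing the data, edgeR's newer quasi-likelihood. Replicates were not repeats of 1 library, with chi-square values of 5.63 or more per degree of freedom within groups.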

Additional observations from a re-analysis of the deposited data

Results flagged for a closer look

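Only the 9 members and the 5 pathway lists were looked through here. Over all 13852 tested genes the interaction was called for 65 (0.469%), among them 3 of the 8 embryonic stem cell markers. For 3 genes of the members and lists, the proline effect differed between cells with and without budesonide by the interaction term of edgeR's fit. Pim2 had an interaction of −1.37 (log2), Klf4 of 1.39 (adjusted p = 0.00129) and Tfcp2l1 of 1.71 (adjusted p = 3.82e-06), each of which was called under all 20 alternatives. The proline effect on each was smaller with budesonide than without it.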

How the results depend on the processing

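Of the 54 changes of the 9 members (9 genes in 6 comparisons), 11 were called, and 8 of these were called under all alternatives run. The other 3, Pim2 and Pim3 with budesonide and Pim3 in both against control, lost the call under settings named in the report, and none of the 11 changed sign. Of the 43 not called, 2 were called under at least 1 alternative (Socs3 and Pim3 with proline). Members called numbered 0 with budesonide in the fit of its 6 libraries. They numbered 1 with budesonide and 1 in both against control with the offsets and without control 3 and budesonide 3, which gave 4 with proline. Leaving out 1 library gave 2 to 4 with proline, 1 to 2 with budesonide and 1 to 2 in both against control.

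Over all genes, both against budesonide had 203 calls, 416 with DESeq2, 354 with no low-count filter, 120 in the fit of its 6 libraries and 128 with the replicate block. The interaction had 65, 148 with DESeq2 and 134 with no filter. Budesonide had 902, 493 in the fit of its 6 libraries and 575 without control 3 and budesonide 3. Leaving out 1 library gave 80 (both 1) to 307 (control 3) in both against budesonide, 535 (both 2) to 1187 (budesonide 3) in both against control, 836 (both 1) to 1647 (budesonide 3) in both against proline and 674 (proline 1) to 1245 (budesonide 3) with proline. Deviations from the group means correlated at −0.0767 to 0.0529 between libraries of the same replicate number, so no strong shared replicate effect was seen. The labels do not say whether equal numbers were paired, and low correlations cannot show that they were not.

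Signs changed for 12 changes that were not called. With the offsets, Il6st with budesonide was −0.013, and in both against control Jak1 was −0.029 and Pim1 −0.013, while Pim3 was −0.042 in both against budesonide. Without control 3 and budesonide 3, Il6st in both against control was 0.034, Socs3 and Stat3 with budesonide were −0.13 and 0.0085, Pim3 in both against budesonide was −0.0069, and the interactions of Jak1 and Pim1 were −0.16 and −0.038. The Jak1 interaction was −0.00013 with no filter. Leaving out 1 library gave, in both against control, −0.12 to 0.037 for Il6st, −0.084 to 0.098 for Jak1, −0.14 to 0.15 for Lifr, −0.0093 to 0.17 for Pim1 and −0.30 to 0.15 for Socs3. It gave −0.020 to 0.43 for Socs3 and −0.30 to 0.093 for Stat3 with budesonide, −0.19 to 0.076 for Stat3 with proline, and −0.069 to 0.12 for Pim3 in both against budesonide. The interactions ran from −0.14 to 0.23 for Jak1 and −0.0088 to 0.31 for Pim1. The causes were not tested. Junb had the fewest counts of the 9, and its SE was the largest in each comparison.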
